A study of Caenorhabditis elegans with 8 samples.

Results

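The double mutant that lacks both spr-5 and met-2 function was set against the spr-5 single mutant, to describe how transcript levels differ once met-2 is lost in addition to spr-5. The animals were starved L1 (first larval stage) worms of Caenorhabditis elegans. A transcript was a member if its base mean, the average of scaled reads over the libraries compared, reached 50 against the wild-type strain N2 in either mutant's deposited table and both tables gave it a log2 fold change. This rule kept 7619 of 50832 transcripts (14.99%), 484 of them through the double-mutant table alone and 717 through that of spr-5 alone. The member nearest this minimum had a base mean of 50.04 and a difference, as defined next, of 0.53, and the transcript just below it had 49.996 and -2.10. For each, the difference is the log2 fold change of the double mutant against N2 minus that of spr-5 against N2, so that N2 largely cancels. RefSeq (assembly WBcel235) gave a symbol to 6688 of them, and the other 931 are named by accession.

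Besides N2, 3 mutant strains were sequenced, with 2 libraries per strain: spr-5 with allele (by101)(I), met-2 with allele (n4256)(III), and the double mutant, labelled spr-5; met-2, with both alleles. Both sides of the comparison thus carry the spr-5 allele. Total RNA came from 200 to 250 whole starved larvae that hatched overnight in buffer at 21 to 22 °C, from animals cultured at 20 °C. Each value thus averages all tissues of a larva, and fewer cells of a type and less RNA per cell cannot be told apart. The labels do not say whether the replicates came from separate cultures, and the tables hold no values of single libraries, so no spread between libraries can be shown and 1 library could carry any of the values below.

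SPR-5 is the worm relative of the demethylase LSD1 and removes methyl groups from lysine 4 of histone H3, a mark of transcribed genes. MET-2 is a methyltransferase of lysine 9 of histone H3, a mark of repressed chromatin. In C. elegans both act in the parental germline, where they are known to erase the record of germline transcription before the next generation, so genes of the germline are where their loss is usually studied. Another group that enters here is the intracellular pathogen response, a transcriptional programme that worms switch on after infection by microsporidia or the Orsay virus and that includes many genes of the pals family and parts of a ubiquitin ligase.

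The largest difference was that of pals-5, a gene of that response. Of the 54 genes with a difference of at least 4, 14 belonged to the pals family, which held 21 of all 7578 genes past the minimum. Of these 21, 12 passed only through the double-mutant table, which favours a large difference. Of the 7619 members, 872 (11.4%) had a difference of at least 1 on the log2 scale, a 2-fold higher change in the double mutant, and 709 (9.31%) had one of at most -1. At 4 or more the counts were 54 higher and 8 lower. The median difference was 0.03, with quartiles of -0.43 and 0.50, and 79.2% of members lay within 1 of equality. No test of the difference is possible with these tables. Its error is given as a combined SE, the root of the summed squares of the authors' SEs, which ranged from 1.15 to 1.65 with a median of 1.303 and counts the shared N2 libraries as if they were separate. Differences above 2 combined SEs were found for 130 members (1.71%) and below -2 for 32 (0.42%), and above 3 or below -3 for 51 and 3.

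**Figure D1:**
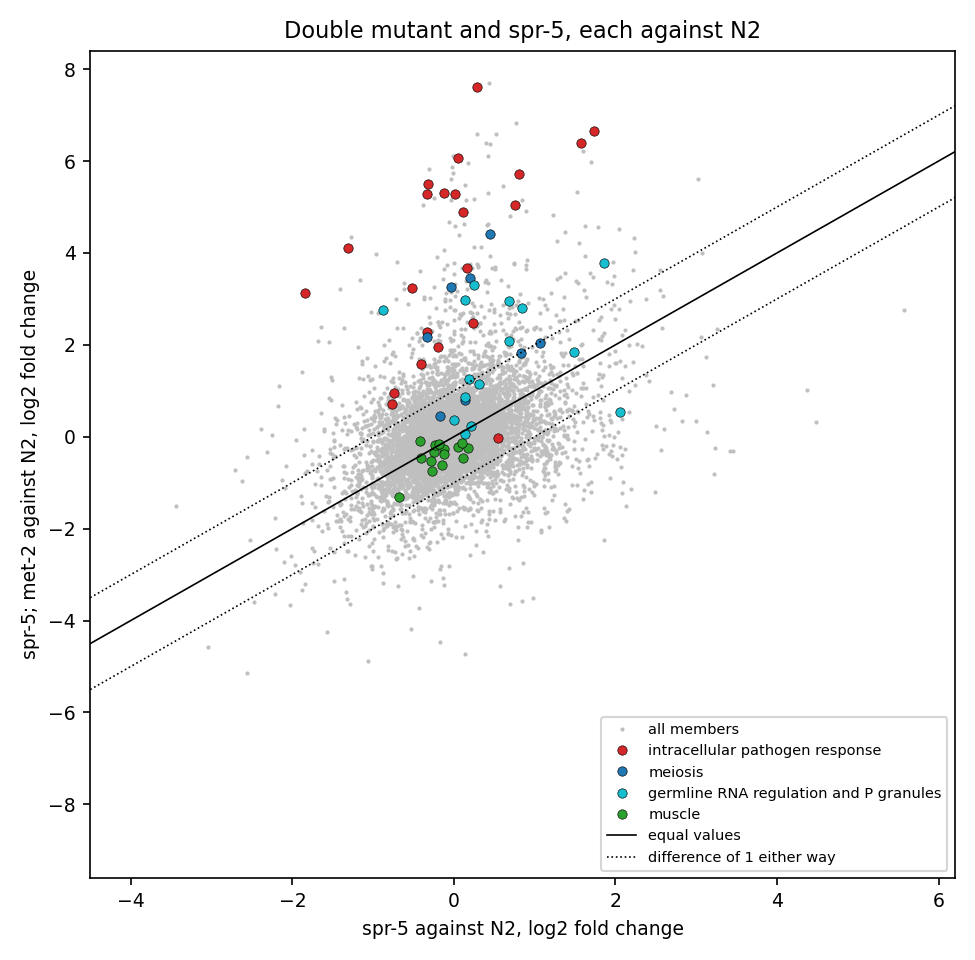
Authors' log2 fold changes of the 7619 members against N2, in spr-5 on the horizontal axis and in the double mutant on the vertical axis; coloured points are genes of 4 lists, the solid line marks equal values and the dotted lines a difference of 1. Of the 22 genes of the intracellular pathogen response, 21 lie at least 1 above the line of equal values, with pals-25 below it, while the 15 muscle genes lie within 1 of it.

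The deposited fold changes appear to be shrunken towards 0, and not equally. The SEs in the authors' deposited tables go no higher than 1.37 for the double mutant and 0.93 for spr-5, and over the members the fold changes had an SD of 1.04 and 0.63. If so, a transcript that changed alike in both mutants can show a difference other than 0. A second measure does not use fold changes. The base mean, the authors' mean of scaled reads over the 4 libraries of a comparison, holds the same N2 libraries in both tables, so the ratio of the base means after scaling is a lower bound on the ratio of the mutants' own mean levels. The scale, the median ratio over members, multiplied the base means of the double-mutant table by 1.11 (0.15 on the log2 scale). By this bound, 491 members (6.44%) were at least 2-fold higher in the double mutant and 295 (3.87%) at least 2-fold lower. The direction was the same as that of the difference for 870 of the 872 higher and 709 of the 709 lower members. Both measures come from the same libraries, so this is not an independent check. Summed over all transcripts, the base means came to 4969238 scaled reads in the double-mutant table and 5216667 in that of spr-5. As these reads are scaled, the sums do not show the depth of the libraries, which the tables do not give.

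**Figure D2:**
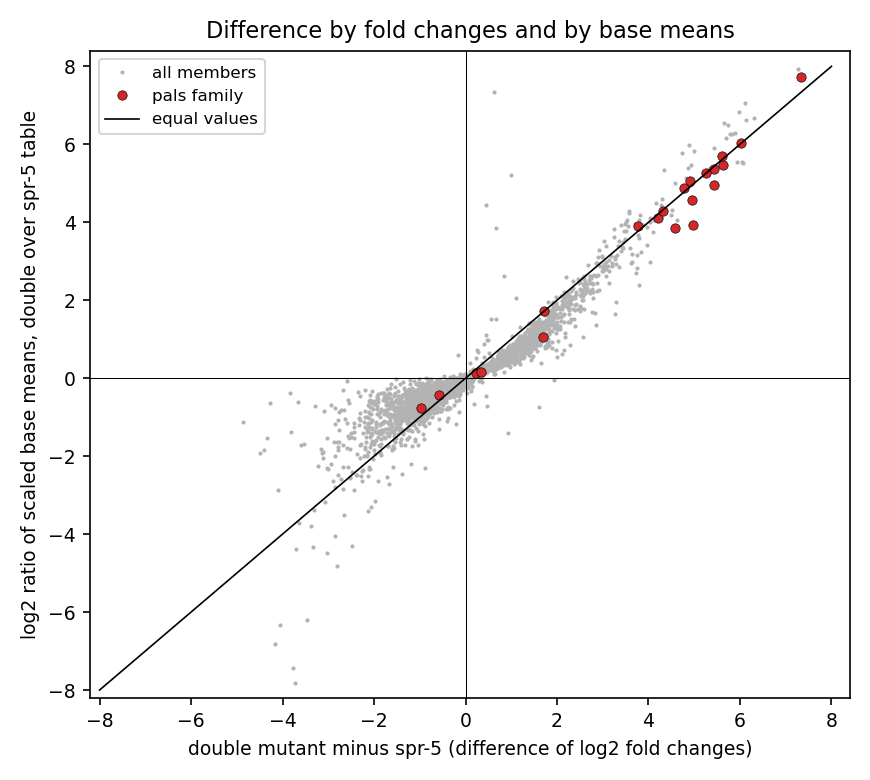
For each member, the difference of log2 fold changes (horizontal) and the log2 ratio of scaled base means of the double-mutant over the spr-5 table (vertical), with the pals family in red and the line of equal values. The 2 measures, which come from the same libraries, point the same way for nearly all members with a difference of at least 1 or at most -1. pals-5 sits at 7.32 and 7.73.

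Against N2, the authors' adjusted p under 0.05 called 66 members higher in the double mutant (0.868% of those with an adjusted p) and 6 lower (0.0789%). In spr-5 it called 3 higher (0.0394%) and 0 lower. Without adjustment, a p under 0.05 in the authors' deposited tables marked 127 members higher and 49 lower for spr-5. By the same rule 287 were higher and 88 lower for the double mutant. Among 7619 members many can pass an unadjusted threshold by chance, so these counts alone do not show changes. Of the 66 that rose in the double mutant, 66 had a difference from spr-5 of at least 1 and 59 one above 2 combined SEs. The differences of these 66 ran from 1.92 to 7.32, with a median of 4.79, and 16 of them had a log2 fold change of 1 or more in spr-5 as well. The 6 that fell had differences of at most -1, and for 4 of them it was below -2 combined SEs. These comparisons share the N2 libraries, so a call in one and not in the other does not show that the mutants differ. Calls in the double mutant rest on its fold change, which is the first term of the difference. That the called genes also had large differences thus follows largely from how they were chosen, and is no test of the difference.

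How the differences came about varied. Of the 872 higher members, 488 were up by 1 or more in the double mutant while within 1 of N2 in spr-5, 81 were down by 1 or more in spr-5 and within 1 of N2 in the double mutant, and 23 lay past 1 in opposite directions. For 229 neither change reached 1. Of the 709 lower members, 295 were down in the double mutant alone, 160 were up in spr-5 and within 1 of N2 in the double mutant, and 28 went opposite ways. The share past 1 fell with the level. Among the 1905 members with the lowest base means 15.1% were higher and 15.5% lower, and among the 1905 with the highest 5.72% and 1.89%.

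Pathogen response genes were described first, beginning with the pals family, which shares a protein signature of unknown biochemical role. pals-5, whose promoter drives the usual reporter of the response, had a base mean of 681 in the double-mutant table and 3.54 in that of spr-5, per the authors' deposited tables. Its log2 fold change against N2 was 7.62 (SE 1.05, adjusted p 4.84e-09) in the double mutant and 0.29 (SE 0.74) in spr-5 in the authors' deposited tables, a difference of 7.32 (combined SE 1.29). The base means alone put the double mutant at least 213-fold higher than spr-5. pals-2 rose by 6.08 (SE 0.95, adjusted p 4.33e-07) in the double mutant (authors' deposited table) and was at 0.05 in spr-5, with base means of 1137 and 19.1. Both genes were thus among the scarce transcripts of the spr-5 table and well expressed in that of the double mutant.

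Across the pals family, 21 of 37 genes passed the base mean minimum, 12 of them only through the double-mutant table. Of the 21, 17 had a difference of at least 1, 0 one of at most -1, and the median was 4.77, where the median of all 7578 genes, each by 1 transcript, was 0.03. Since genes that pass only where they are high must differ, the 33 pals genes with fold changes were also read without a minimum. Then 24 had a difference of at least 1 and 1 one of at most -1, with a median of 3.77, beside 7.93% and 11.9% of 26144 genes and a median of -0.15. By the adjusted p of the authors' deposited table, 12 of the 21 rose in the double mutant, and 0 were called in spr-5. Near-identical pals genes can share reads, so single values in the family are uncertain.

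Not every pals gene stood apart from spr-5. pals-22 and pals-25, neighbours that are known to repress and to promote the response, had differences of 1.69 and -0.58, and the authors' deposited table gave log2 fold changes of 0.95 and -0.03 in the double mutant, neither called. pals-20 and pals-24 differed by 0.35 and 0.23 and pals-18 by -0.98. pals-4, pals-8, pals-9 and pals-32 were below N2 in spr-5, at -1.32, -1.85, -1.28 and -1.16 in the authors' deposited table, and above N2 in the double mutant, at 4.11, 3.14, 4.34 and 3.41. Their differences of 5.42, 4.98, 5.62 and 4.57 therefore include a part from spr-5. Of these 4, pals-4 and pals-9 rose in the double mutant by the authors' adjusted p.

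Beyond pals, the response list held genes of an F-box protein, a decapping enzyme and Skp1-related adaptors. eol-1, a relative of a decapping exonuclease, rose by 6.39 (adjusted p 2.33e-06) in the double mutant (authors' deposited table) and stood at 1.58 in spr-5, a difference of 4.81. fbxa-75, an F-box protein gene, rose by 5.50 (adjusted p 8.11e-05) in the authors' deposited table, with base means of 345 in the double-mutant table and 4.95 in that of spr-5. B0507.8 rose by 6.66 (adjusted p 4.84e-09) in the authors' deposited table and had 1.73 in spr-5. The Skp1-related adaptors skr-3, skr-4 and skr-5 and the RING-domain gene rcs-1, partners in the ubiquitin ligase of the response, had smaller differences of 1.49, 2.61, 2.15 and 1.99. None of the 4 was called in the double mutant. Its cullin, cul-6, was near 0 reads, with base means of 1.91 and 0.305 in the authors' deposited tables, and was not a member. In all, 22 of 28 list genes in the tables passed the minimum, 14 of them only through the double-mutant table, and 21 of the 22 had a difference of at least 1. Without a minimum it was 23 of 26, with a median of 4.03. Of all genes, 11.45% had such a difference past the minimum and 7.93% without one. pals-3 had a base mean of 52.6 in the double-mutant table but no fold change in spr-5, so it was not a member.

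The largest differences outside the lists were in genes with few reads in the spr-5 table. C17H1.2 rose by 7.70 (SE 1.08, adjusted p 4.84e-09) in the double mutant (authors' deposited table), with base means of 888 and 4.01, a difference of 7.27. Y39H10B.3 rose by 6.599 (adjusted p 6.67e-06) and F15H10.10 by 6.10 (adjusted p 3.44e-05) in the authors' deposited table, with base means in the spr-5 table of 1.68 and 1.79. B0507.9, Y68A4A.13, trpl-5 and the accession NM_001136360 differed by 6.06, 5.93, 5.89 and 6.12, and each rose in the double mutant by the authors' adjusted p. Among the 12 genes with the largest differences, every base mean in the spr-5 table was under 20, so their spr-5 levels rest on few reads. These 12 thus passed the minimum only through the double-mutant table, which favours a large positive difference.

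**Figure D3:**
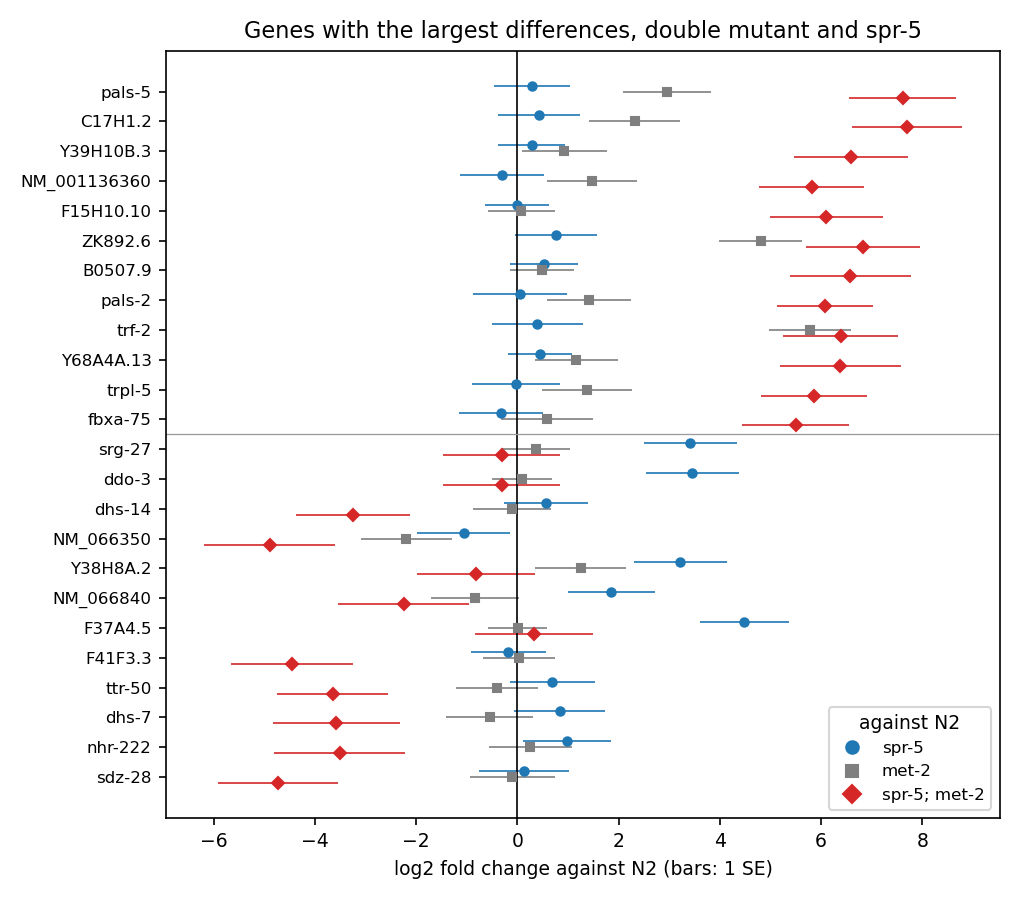
Authors' log2 fold changes against N2 with 1 SE for the 12 genes with the largest and the 12 with the smallest differences beyond 2 combined SEs, in spr-5 (blue), met-2 (grey) and the double mutant (red). In the upper block the red points lie between 5.50 and 7.70 and the blue ones near 0, and trf-2 and ZK892.6 are also high in met-2.

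Whether these genes were also high when met-2 alone was lost was read from the third table, which shares N2 with the others. Of the 66 members that rose in the double mutant, 37 had a log2 fold change of 1 or more in met-2 and 29 less, with medians of 1.32 in met-2 and 0.41 in spr-5, per the authors' deposited tables. Among all 7619 members, 273 had one of 1 or more in met-2, and the medians were -0.04 in met-2 and -0.03 in spr-5. The 66 were called against the same N2 libraries, so the counts are not independent of that choice. For trf-2 the spr-5, met-2 and double-mutant values were 0.40, 5.78 and 6.39 in the authors' deposited tables. ZK892.6 had 0.77, 4.81 and 6.83 in the same order in the authors' deposited tables, and F15D4.5 had 1.702, 4.24 and 5.98. The 21 pals genes had median log2 fold changes of 0.02, 0.05 and 4.11 in that order in the authors' deposited tables, although pals-5 itself had 2.96 in met-2, where it was not called. No test of the double mutant against met-2 was made.

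The positions of the higher genes relative to each other were counted, with no test. Of the 715 protein-coding genes with a difference of at least 1, 12.9% had an adjacent protein-coding gene that also had one, against 8.33% of the 6353 protein-coding members and 44.7% of the 47 with a difference of at least 4. The order of genes is that of RefSeq for assembly WBcel235. There were 7 runs of 3 or more such neighbours, holding 22 genes. The longest, of 4 genes, was pals-5, pals-9, pals-6 and pals-14, with differences from 4.77 to 7.32. Another joined ddn-1, B0507.8 and B0507.9, with differences of 4.86, 4.93 and 6.06, and one more held fbxa-188, fbxa-189 and skr-5. Adjacent genes can overlap, and as the sources do not say whether counting used strand, reads of overlapping neighbours may not be separable.

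Germline genes formed the second group. On the chromosome axis and the synaptonemal complex, syp-1, a protein of the complex's central region, rose by 4.42 (SE 0.99, adjusted p 0.00227) in the double mutant (authors' deposited table), with 0.45 in spr-5 and 4.20 in met-2. Its base means were 442 in the double-mutant table and 33.3 in that of spr-5. The axis proteins htp-3, htp-1 and htp-2 had differences of 3.29, 3.27 and 2.50. The authors' deposited table gave them 3.25, 3.46 and 2.17 in the double mutant, none called, and -0.03, 0.19 and -0.33 in spr-5. htp-1 and htp-2 are near-identical paralogs, so their single values are uncertain. The remaining meiotic genes past the minimum differed by less, from 0.61 for him-17 to 0.99 for syp-3.

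Of 26 meiosis genes found, 8 passed the minimum, 5 only through the double-mutant table, and 4 had a difference of at least 1. Of all 7578 genes, 11.45% had one. Without a minimum it was 7 of 21 higher and 0 lower, with a median of 0.67, beside 7.93% and 11.9% of 26144 genes and a median of -0.15. Only 3 genes of the list had a base mean of at least 50 in both tables, and 0 of those 3 had a difference of at least 1. A further 4 genes of the list, among them the axis gene him-3, were listed at 0 in both tables. The muscle genes ttn-1 and deb-1 were also at 0 in both, although other muscle genes were high, so a 0 alone does not show absence.

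Among RNA regulators of the germline, differences ranged from -1.51 to 3.65. gld-1, a translational repressor, had base means of 443 and 62.6 and a difference of 3.65. cpb-1, a CPEB protein, and gld-2, a cytoplasmic poly(A) polymerase, differed by 3.04 and 2.85. A second gld-2 transcript, with fewer reads summed over both tables, differed by -0.70. With each gene represented by its highest transcript in the spr-5 table, the list median was 0.83 instead of 1.06. Other translational regulators of the list were lower, with daz-1 at 0.83, puf-8 at 0.35, cgh-1 at 0.01 and cpb-3 at -0.08. The Vasa-related helicase gene glh-1 differed by 2.28, with 2.96 in the double mutant and 0.68 in spr-5 in the authors' deposited table. gld-1, cpb-1, gld-2 and glh-1 were not called in the double mutant. The Piwi argonaute prg-1 rose by 3.78 (SE 0.94, adjusted p 0.0120) in the double mutant (authors' deposited table), but stood at 1.86 in spr-5, so that the difference was 1.92. Among 34 genes of the list, 15 passed the minimum, 8 with a difference of at least 1 and 1, the RNA-dependent RNA polymerase gene ego-1, at -1.51. ego-1 was higher in spr-5, at 2.06, than in the double mutant, at 0.54, in the authors' deposited table. Without a minimum 11 of 31 were higher and 5 lower, with a median of 0.37, beside 7.93% and 11.9% of all genes and a median of -0.15. Past the minimum all genes gave 11.45% and 9.26%, and 3 of the 15 had passed only through the double-mutant table.

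Among argonaute and related small RNA genes, 18 of 29 passed the minimum, 2 of them only through the double-mutant table. A difference of at least 1 was found for 7 (38.9%, against 11.45% of all 7578 genes) and one of at most -1 for 1. Without a minimum 9 of 25 were higher and 2 lower, with a median of 0.36. ppw-1 differed by 3.07, csr-1, which licenses germline transcripts, by 1.95, and hrde-1, the nuclear argonaute of germline inheritance, by 1.41. nrde-3, which acts in somatic RNA interference, and rde-1 differed by 0.06 and 0.36. wago-1, of the germline list above, differed by 0.73, and the lowest member of the argonaute family by -1.47. Of the 18, prg-1 was called against N2. Outside that list, the argonaute gene vsra-1, chosen after its values were seen, rose by 3.57 in the double mutant (authors' deposited table) and differed by 2.20.

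In the oocyte and eggshell list, 12 of 20 genes passed the minimum, 7 with a difference of at least 1 and 1 of at most -1. cbd-1, a chitin-binding eggshell protein, had base means of 679 and 222 and a difference of 2.26. oma-2, a zinc finger protein of maturing oocytes, differed by 2.12, while its relative oma-1 differed by -0.85. mex-5 and puf-5 differed by 1.62 and 1.41, and puf-3 by -1.57. None of the list was called in the double mutant. Among genes that reached 50 in both tables, 6 of 11 had a difference of at least 1, where 7.62% of 6389 genes did. In the sperm list 1 of 21 genes, spe-26, passed the minimum, with a difference of -0.96, and 0 of 25 major sperm protein genes did. Without a minimum 3 of 14 sperm genes had a difference of at least 1 and 2 one of at most -1, with a median of -0.34. All genes then gave 7.93% and 11.9%, with a median of -0.15. Of the 14 sperm genes 4 were above 0. The highest, spe-9, had base means of 39.1 and 7.399 and a difference of 2.67. The lowest, spe-4 and spe-11, were at -1.87 and -1.49.

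**Figure D4:**
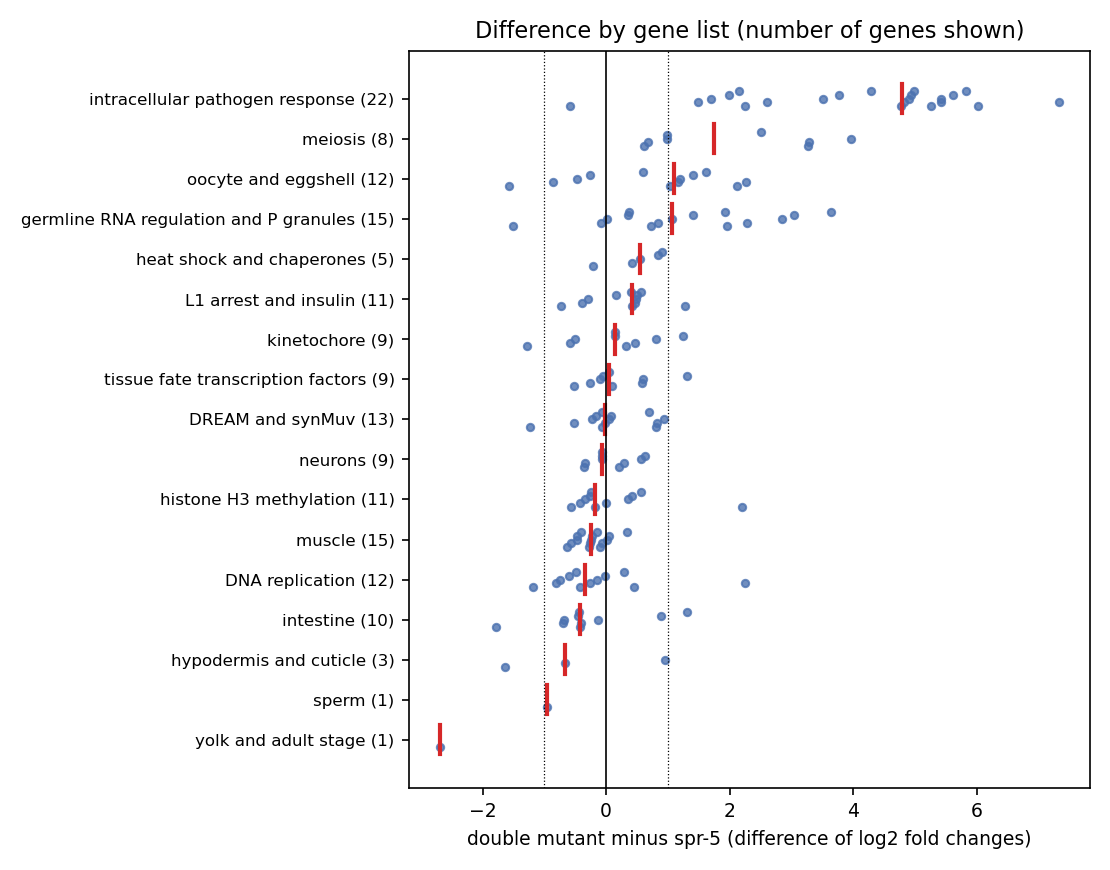
Difference of the double mutant from spr-5 for each gene of 17 lists that passed the base mean minimum (points), with the median in red and the number of genes in brackets; dotted lines mark 1 and -1. The pathogen response list has its median at 4.79 and the 3 larger germline lists above 1, while the somatic lists lie between -0.66 and 0.05. In the pathogen response list 14 of 22 genes, and in the meiosis list 5 of 8, passed only through the double-mutant table. Without a minimum the pathogen response median is 4.03. Those of meiosis, germline RNA regulation and oocyte genes are then 0.67, 0.37 and 0.57, and the somatic ones lie between -0.68 and 0.01.

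Tissue genes of the soma were read to check the larvae and to see whether they moved. Muscle, intestine and neuron genes passed the minimum in 15 of 20, 10 of 12 and 9 of 18 cases, so transcripts of these larval tissues were detected. Muscle genes differed little. The median was -0.24, the range -0.63 for unc-22 to 0.33 for tni-1, and 0 had a difference past 1 either way. unc-54, the main body wall myosin, had base means of 67973 and 85202 and a difference of -0.28. The pharyngeal myosin gene myo-2 differed by -0.57. Neuron genes had a median of -0.06 and also 0 past 1, with the synaptic vesicle priming gene unc-13 at 0.63 and the choline transporter gene cho-1 at 0.57.

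Intestinal genes were mostly lower, with a median of -0.43 and 8 of 10 below 0. The aspartyl protease asp-1 differed by -0.68 and the metallothionein mtl-2 by -1.79, whereas elt-2, the GATA factor that directs the tissue, differed by 1.31. None of the list was called in the double mutant. Hypodermis and cuticle genes passed in 3 of 15 cases, with sqt-3, a collagen, at -1.64 and the moulting gene mlt-10 at 0.95. vit-5, a yolk protein gene of adults, fell by 4.25 (adjusted p 0.00947) in the double mutant (authors' deposited table) and stood at -1.57 in spr-5 and -0.03 in met-2. Its difference was -2.68, and vit-4, below the minimum, had one of -2.45. Of the 6 genes of the yolk and adult list, vit-5 alone passed the minimum and 2 were at 0 in both tables. As for him-3, a 0 alone does not show absence. The summed base means of the list were 126.4 in the double-mutant table and 169.6 in that of spr-5. The part of older animals in the germline values was not tested.

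Housekeeping and cell cycle lists had medians on both sides of 0. Of 46 cytosolic ribosomal protein genes 45 were above 0, from -0.01 to 0.97 with a median of 0.35, and 0 had a difference of at least 1. Of 27 proteasome subunit genes 23 were above 0, with a median of 0.43, and pbs-3 reached 1.54. DNA replication genes had a median of -0.34, with the licensing factors cdt-1 at 2.24 and cdc-6 at -1.18. Kinetochore genes had a median of 0.15, with him-10 at -1.28 and the centromeric histone gene hcp-3 at 1.24. Of the chaperones, the Hsp70 gene hsp-1 differed by 0.91 and the heat shock factor hsf-1 by 0.84. The list of L1 arrest and insulin signalling had a median of 0.41, with 8 of 11 genes above 0, 1 at 1 or more and 0 at -1 or less, and its lowest member was the linker histone gene hil-1 at -0.73. None of these genes was called in either table.

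Regulators of histone H3 methylation had a median difference of -0.18. The spr-5 transcript itself differed by 0.36, with 1.26 in the double mutant and 0.90 in spr-5 in the authors' deposited tables, and that of met-2 by -0.56, with -0.45 and 0.11. Neither value checks a label, since a mutated gene may go on making RNA. Of the 11 genes past the minimum, 1 had a difference of at least 1, set-2, the main methyltransferase of lysine 4, at 2.21, and its base mean in the spr-5 table was 18.6. set-25, a methyltransferase of lysine 9, and mes-4, which maintains marks on germline genes, differed by -0.01 and -0.34. set-1, a methyltransferase of histone H4, differed by 0.57. In the synMuv and DREAM list, which holds repressors of germline genes in the soma, the median was -0.02, with lin-13 at 0.94 and dpl-1 at -1.23. The fate regulators had a median of 0.05, and 1 of 9, elt-2, had a difference past 1. php-3, a posterior Hox gene, differed by 0.60.

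Past the base mean minimum of 50, lower members were fewer than higher ones, but this balance turned with the minimum, to 1684 higher and 2107 lower at a base mean of 10. sdz-28, named for its dependence on the embryonic factor SKN-1, fell by 4.73 (SE 1.19, adjusted p 0.0155) in the double mutant (authors' deposited table) and stood at 0.13 in spr-5, with base means of 58.1 and 139.8. Its difference of -4.86 was the lowest of all members. F41F3.3 and the accession NM_066350 also fell, to log2 fold changes of -4.46 and -4.89 in the authors' deposited table, with differences of -4.28 and -3.83. nhr-222, a nuclear hormone receptor gene, the short-chain dehydrogenase genes dhs-7 and dhs-14 and the transthyretin-related gene ttr-50 differed by -4.49, -4.41, -3.81 and -4.34. For these 4 the authors' deposited table gave -3.51, -3.57, -3.24 and -3.65 in the double mutant, none called, and values from 0.57 to 0.98 in spr-5. The base means, which set only a lower bound, were 2.61- to 3.78-fold lower in the double-mutant table. nhr-222, dhs-7, dhs-14 and NM_066350 had 14.9, 23.8, 33.6 and 44.3 there, so they passed the minimum only through the spr-5 table. As with higher genes that pass through 1 table alone, this choice favours a large difference.

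Other lower genes were high in spr-5 and less so in the double mutant. F37A4.5 and W03A5.1 rose in spr-5 by 4.49 (adjusted p 0.00343) and 4.38 (adjusted p 0.000211) in the authors' deposited table. In the double mutant they stood at 0.33 and 1.01, with base means of 0.742 and 15.2 against 92.8 and 231.9 in the spr-5 table. F37A4.4, next to F37A4.5, rose by 5.57 in spr-5 and had 2.76 in the double mutant (authors' deposited tables), a difference of -2.81 that lay within 2 combined SEs. Y38H8A.2, ddo-3 and the chemoreceptor gene srg-27 had 3.22, 3.46 and 3.42 in spr-5 in the authors' deposited table, none called, and -0.82, -0.31 and -0.31 in the double mutant. Their base means there were under 1, so the double-mutant level rests on a few reads at most. The accession NM_066840 had 1.86 in spr-5 and -2.25 in the double mutant (authors' deposited tables), a difference of -4.10. Every gene named in this paragraph passed the minimum only through the spr-5 table, where it was high, which favours a negative difference.

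Large gene families had members in both directions. Among F-box genes of the fbxa family 27 of 152 passed the minimum, and 13 had a difference of at least 1 and 2 one of at most -1. fbxa-75, fbxa-165 and fbxa-7 rose in the double mutant by the authors' adjusted p, with differences of 5.82, 5.19 and 3.80, while fbxa-128 differed by -2.52. As 12 of the 27 passed only through the double-mutant table, the family was also counted without a minimum, with 31 of 134 higher and 22 lower and a median of -0.15. All genes then gave 7.93% higher and 11.9% lower, with a median that was also -0.15. The family bath held 1 called gene, bath-21, with a difference of 5.01. Of 41 C-type lectin genes, 5 (12.2%) were at 1 or more and 10 (24.4%) at -1 or less, where all genes gave 11.45% and 9.26%. clec-72 was at -2.36 and clec-226 at 3.58. Without a minimum 10 of 213 lectin genes were higher and 66 lower, beside 7.93% and 11.9% of all genes. Chemoreceptor genes past the minimum numbered 28 of 1265, with 14 at 1 or more and 7 at -1 or less. Of these 28, 12 passed only through the double-mutant table and 8 only through that of spr-5, which favours large differences both ways. Counted without a minimum, 66 of 1070 were higher and 178 lower, with a median of -0.44. All genes gave 7.93% and 11.9%, with a median of -0.15. srd-19 was called lower in the double mutant, at -4.57 in the authors' deposited table, but was also at -3.04 in spr-5. Nuclear hormone receptor genes had a median of 0.01, with 6 of 77 (7.79%) at 1 or more and 7 (9.09%) at -1 or less. Collagen genes of the col family had -0.42, with 1 and 3 of 14 (7.14% and 21.4%). Neuropeptide and insulin-like genes had a median of 0.32, with 6 and 5 of 73 (8.22% and 6.85%). All genes past the minimum gave 11.45% and 9.26%. Without a minimum, 19 of 226 receptor genes were higher and 30 lower. For col genes it was 5 and 34 of 122, and for neuropeptide genes 8 and 13 of 125. All genes then gave 7.93% and 11.9%.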

How the data were processed

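Members and gene lists were chosen with earlier results of these data known. The authors deposited 3 tables, each mutant against N2, made with DESeq2 2.11.40.2 after FastQC, Trimmomatic and featureCounts on build ce10, per the submitters' processing notes. The aligner, annotation and strand setting are not given in the sources used here. Base means were deposited as a mean signal over 4 libraries, 2 of them N2. The authors' log2 fold changes and SEs, the Wald score and the authors' p-value and adjusted p-value were used as deposited, and the tables were scaled separately. With replicates of unstated origin, these p-values measure only the spread between these samples. Columns of single samples left unused numbered 0. The difference, combined SE, base mean ratio and list counts were computed with Python 3.11.15 and pandas 2.3.3, and checked on simulated tables.

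A list gene was represented by the transcript with the largest summed base mean. Named genes were the 12 largest and 12 smallest differences beyond 2 combined SEs, 2 per list by size, those called in spr-5, the 10 smallest adjusted p-values in the double mutant, and spr-5 and met-2. Other genes in the text were named from the lists, families or runs after their values were seen. RefSeq symbols came from assembly WBcel235, used for names and neighbours, and no coordinate or sequence is printed because the builds differ. A planned motif count was not made. The values of 1 named gene are not reported here.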

Additional observations from a re-analysis of the deposited data

How the results depend on the processing

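No paired analysis was possible because the tables hold no values of single samples, and for the same reason no library could be left out in turn. For 60 of 60 named genes the direction was the same by the base mean ratio and after centring on the median. Centring took 0.03 from each difference, and the smallest in size among the named genes was 0.36 for spr-5, so no direction could change. The base mean ratio comes from the same libraries as the fold changes and is not an independent check. The counts of 872 higher and 709 lower members became 1684 and 2107 with a base mean minimum of 10, 489 and 362 with 50 in both tables, 273 and 166 with 200, 253 and 150 at a fold of 4, and 491 and 295 by base means. With the minimum of 10 the lower members thus outnumbered the higher ones. Beyond 2 combined SEs, 130 and 32 became 201 and 65 with a minimum of 10, 23 and 8 with 50 in both tables, 65 and 4 with 200, and 51 and 3 at 3 combined SEs. Fewer or more transcripts enter under the other minimums, and a ratio of base means is a lower bound by construction. Over all transcripts, 78 calls higher and 9 lower in the double mutant became 50 and 2 at an adjusted p under 0.01, and the 9 lower became 3 with Benjamini-Hochberg adjustment over all p-values. The pathogen response median fell from 4.79 to 2.07 over the 8 genes with 50 in both tables, an alternative chosen after seeing the data. 4 list medians changed sign: sperm to 0.41, DREAM and synMuv to 0.012 and tissue fate factors to -0.039 with a minimum of 10, DREAM and synMuv also to 0.012 without one, and neurons to 0.071 with 50 in both. The cause was not tested.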

Other observations

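For 8 members the base means were at least 2-fold higher in the double-mutant table although the difference of fold changes was under 1. nhr-288 had base means of 128.9 and 0.876 in the authors' deposited tables while its double-mutant fold change was 1.04 (SE 1.21, log2 scale). tbx-31 had 60.3 and 1.79 with 0.98, and cey-2, a cold shock domain gene, 154.1 and 27.9 with 1.18, in the authors' deposited tables. srlf-34 had the highest levels of the 8, with base means of 3265 and 1254 and a log2 fold change of 0.50 in the authors' deposited table. The values of the 2 libraries behind each base mean are not in the tables, so whether they differ was not tested.

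By gene type, 8 of 31 members annotated as piRNA loci (25.8%) had a difference of at least 1 and 2 (6.45%) one of at most -1, with a median of 0.63, where all members gave 11.4% and 9.31%. 21ur-8323 rose in the double mutant by 5.29 in the authors' deposited table, with 0.42 in spr-5. The reads at such a locus can belong to a longer transcript across it, which was not tested. Of 185 other non-coding RNA members, 35 (18.9%) were higher and 39 (21.1%) lower.

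Further genes that rose in the double mutant, by the authors' adjusted p, and that were chosen after their values were seen include set-24, a SET domain gene, lotr-1, a germ granule protein gene, and nxf-2, a relative of RNA export factors. Their differences from spr-5 were 3.59, 3.39 and 2.79, and the authors' deposited table gave 2.39, 2.71 and 2.74 in met-2.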
